A study of Mus musculus with 2 samples.

Results

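The cells described here were leukocytes of the mouse heart with at least 2 UMIs of Ly6c2 and little C1q, taken from single-cell RNA sequencing of 2 libraries (a UMI, or unique molecular identifier, stands for 1 counted transcript). A cell was taken when it had 2 or more Ly6c2 UMIs, no UMI of the T cell genes Cd3e and Cd3d, of the B cell gene Cd79a or of Cd209a, fewer than 5 UMIs of the neutrophil genes S100a8 and S100a9 together, and under 0.3% of its UMIs from C1qa, C1qb and C1qc. Of 12407 cells kept after quality filters, 440 met this rule, 195 control and 245 LOY cells. The members were chosen by the UMI counts of these genes, whose levels are therefore a description only. Both groups were mice with transplanted bone marrow that underwent transverse aortic constriction (TAC), a narrowing of the aorta that puts the heart under pressure load. The marrow was control in the first group and lacked the Y chromosome in the second (LOY, loss of Y). Viable CD45+ RFP+ cells were sorted from left ventricles after enzymatic digestion for 30 minutes, so cells without RFP lay outside the sort. The RFP entry of the counts had 0 UMIs in both libraries, so RFP transcripts give no check of the sort. Each group is 1 library from 3 mice pooled after sorting. Strain, age, sex, the time after TAC and the way the Y chromosome was removed are not stated in the labels used here.

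Classical monocytes are short-lived cells made in bone marrow that circulate with high surface Ly6C, a protein encoded by Ly6c2 and its close relative Ly6c1. The chemokine receptor Ccr2 draws them into injured tissue, where they can take up macrophage or antigen-presenting programs. Macrophages of the heart make C1q, a component that starts the complement cascade, whereas monocytes make little of it. Ly6c2 is also transcribed by other leukocytes, among them natural killer (NK) and plasmacytoid dendritic cells.

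With 1 library per group there was no replicate, no test was run, and no difference below has a replicate check. All intervals are 95% intervals and cover counting error only. Levels are CPM (counts scaled to 1000000 UMIs) of the summed cells, and in each pair of values the control library stands before the LOY library. The cells chosen held 1322846 and 702524 UMIs, with medians of 6681 and 2827 UMIs and 2173 and 1188 genes per cell. The gap in depth ran through both libraries, with medians of 5233 and 3040 UMIs over all kept cells. The mitochondrial share of the chosen cells had medians of 2.56% and 1.63%. Of the barcode sequences, 31 occurred in both libraries, 0 of them among the cells chosen. As a check of the labels, the Y-linked genes Ddx3y, Eif2s3y, Kdm5d and Uty had 185 UMIs, 139.8 CPM, in control cells and 11 UMIs, 15.7 CPM, in LOY cells. In LOY cells the level was 11.2% of that in control cells (exact conditional interval 5.49% to 20.5%).

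The set was not made up of monocytes alone. NK transcripts marked 56 of the 195 control cells (28.7%, exact Clopper-Pearson interval 22.5% to 35.6%) and 16 of the 245 LOY cells (6.53%, 3.78% to 10.4%). These cells carried at least 3 UMIs of Nkg7, Klrb1c, Ncr1, Gzma, Klre1 and Prf1 together, with medians of 21.5 and 20.5 such UMIs. They stood apart from the rest, since the highest cell below that limit had 1 and 0 such UMIs and the lowest above it 4 and 4. Lyz2, the lysozyme gene of myeloid cells, was under 5 UMIs in 53 and 15 of them. Another 2 control and 8 LOY cells carried 3 or more UMIs of the plasmacytoid genes Siglech, Ccr9, Cox6a2 and Klk1, and 1 control cell held 5673 haemoglobin UMIs. Without these barcodes (this step was added once the data had been seen), 136 control and 221 LOY cells were left, called the remaining cells below, with medians of 7357 and 2876 UMIs.

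**Figure D1:**
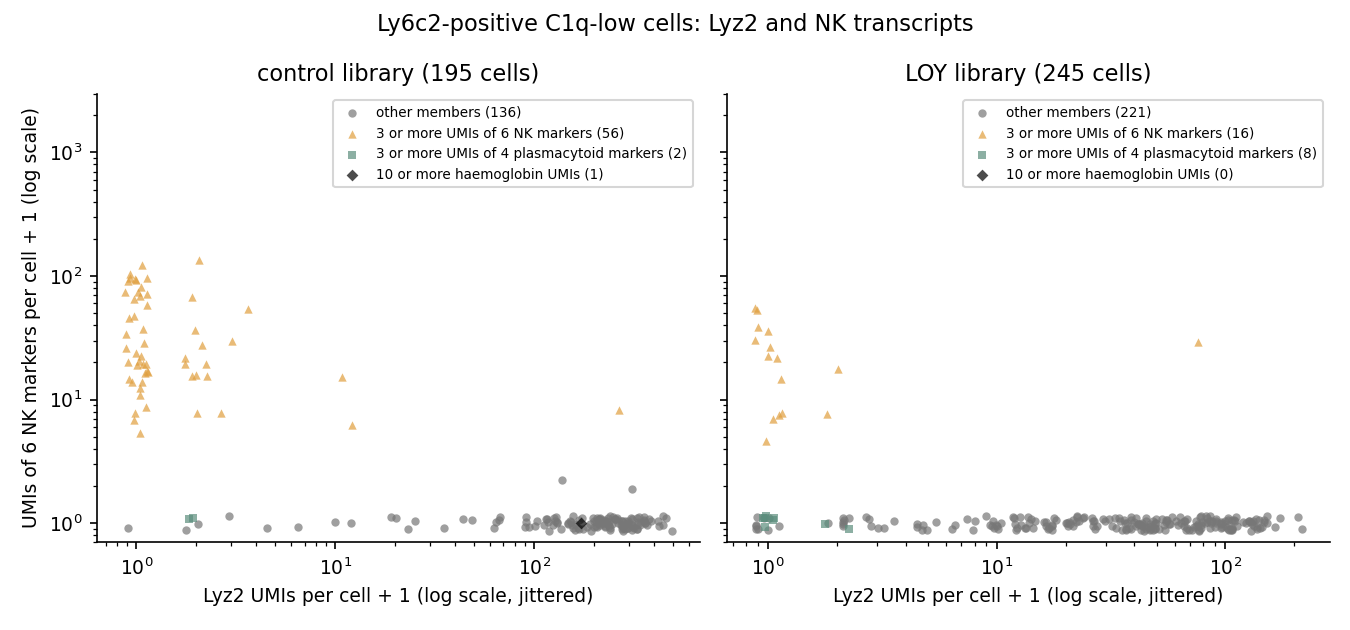
Each point is 1 Ly6c2-positive C1q-low cell, with its Lyz2 UMIs on the horizontal axis and its UMIs of 6 NK markers on the vertical axis (both plus 1, log scales, jittered), for the control (left) and LOY (right) library. The 56 control and 16 LOY cells with NK transcripts lie above the rest, 53 and 15 of them with under 5 Lyz2 UMIs.

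Most of the remaining cells carried transcripts of classical monocyte markers. Besides Ly6c2, 135 of the 136 control and 201 of the 221 LOY cells had 3 or more UMIs of Plac8, Ccr2, Vcan and Chil3 together, and 1 and 3 cells had none. A single gene can reach that sum alone, and the share of cells with each gene is given below. Several low values of other lineages were set by the choice of cells and are no check of it. The 6 NK markers, at 1.92 and 0 CPM, and Siglech, Ccr9, Cox6a2 and Klk1, at 0, are the genes by which barcodes were left out, and the rule held Cd3e, Cd3d and Cd79a at 0 and C1q low. The 9 T cell markers, Cd3e and Cd3d among them, summed to 2.88 and 0 CPM. Of 10 neutrophil markers, Retnlg, Ngp, Ltf and Ly6g were at 0, and the sum of 213 and 116 CPM came mostly from Mmp8, a collagenase of neutrophil granules, at 101 and 48.8 CPM, and from the receptor gene Csf3r, at 75.8 and 41.2 CPM. Cells with 3 or more UMIs of the neutrophil markers numbered 31 and 3. All counts of cells at 3 or more UMIs depend on depth, which was lower in the LOY library. The plasmacytoid list summed to 717 and 1046 CPM through Bst2 and Tcf4. The 5 B cell markers summed to 142 and 116 CPM, nearly all from Ighm (132 and 107 CPM), with Ms4a1 also at 0. The 7 conventional dendritic markers summed to 45.1 and 96.1 CPM, with 3 and 3 cells at 3 or more of their UMIs. Among them Ccl17, a chemokine of dendritic cells, had 0 UMIs in the control, which allows up to 2.88 CPM, and 49 UMIs, 74.7 CPM, in the LOY library. Ccr7, the receptor that guides dendritic cells to lymph nodes, had 23 UMIs in control cells, 22.1 CPM, and none in LOY cells, where a count of 0 allows a level of up to 4.58 CPM. Nonclassical monocyte markers (Ace, Treml4, Spn, Eno3 and Cd300e) summed to 164 and 108 CPM, with 13 and 8 cells at 3 or more UMIs. Plasma cell markers summed to 223 and 89.99 CPM, nearly all from Xbp1, with 35 and 2 cells at 3 or more UMIs. Endothelial markers summed to 15.4 and 28.98 CPM, fibroblast markers to 2.88 and 3.05 CPM and cardiomyocyte markers to 7.68 and 9.15 CPM. The 7 macrophage markers (Adgre1, Mertk, Fcgr1, Mrc1 and the 3 C1q genes) summed to 869 and 1459.6 CPM, and 88 of the 136 control and 128 of the 221 LOY cells had 3 or more UMIs of these genes. With its NK-marked cells the whole set of 440 cannot be called classical monocytes, and for the remaining cells the name rests on Plac8, Ccr2, Vcan and Chil3. Values below are those of the remaining cells unless all 440 are named, and the part of these other markers in the results was not tested.

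The cells chosen made up a larger share of the LOY library. They were 2.79% (2.42% to 3.20%) of 6992 kept control cells and 4.52% (3.99% to 5.11%) of 5415 kept LOY cells. For the remaining cells the shares were 1.95% (1.63% to 2.30%) and 4.08% (3.57% to 4.64%). Both shares depend on the sort and on depth, since a deeper cell reaches 2 Ly6c2 UMIs more easily. When each kept cell was thinned at random to 1000 UMIs before the rule was applied, the remaining cells were 0.707% and 2.61% of the cells. The cells beside the limits of the rule, inside and outside, are given with no barcode left out, so they include NK cells. Just inside the Ly6c2 limit, at exactly 2 UMIs, lay 19 and 38 cells, with Lyz2 at 14402 and 20458 CPM, Apoe at 5200.0 and 11385 CPM and the NK gene Nkg7 at 603 and 233 CPM. Just outside it, at 1 UMI, lay 36 and 77 cells, with Lyz2 at 9922 and 16929.5 CPM, Apoe at 3932 and 9333 CPM and Nkg7 at 285 and 53.4 CPM. Between 0.2% and 0.3% C1q lay 4 and 14 cells inside the rule, and between 0.3% and 0.4% lay 0 and 9 cells outside it.

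Ly6c2 (chromosome 15, 75108158 to 75111970, minus strand, mm10) stood at 1654 and 3075 CPM. Per cell it ranged from 2 to 89 UMIs with a median of 8 in the control and from 2 to 93 with a median of 5 in the LOY library. The rule set the lower end of this range. A floor of 2 UMIs is a larger share of a shallower cell, and the lowest shares were 0.0169% and 0.0427% of a cell's UMIs. The CPM values of Ly6c2 therefore also depend on the rule and on depth. Ly6c1, whose sequence is close to that of Ly6c2, had 0 and 2 UMIs, and how reads shared between them were counted is not given in the sources used here.

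Classical monocyte genes were more often lower than higher in the LOY cells, by amounts that varied widely between genes. A gene needed 10 CPM in at least 1 library to count as measured, and it was higher or lower when the ratio was past 1.5-fold after 10 CPM was added to both levels (log2((LOY CPM + 10)/(control CPM + 10)), a scale that understates differences of low genes). Of 25 such genes, all measured, 9 were lower and 2 higher, with a median log2 ratio of -0.45. Over all 7367 genes measured in the remaining cells, 16.4% were lower and 10.7% higher, with a median of -0.060. In the whole set of 440, 7 were lower and 2 higher with a median of -0.23, against 18% lower, 8.98% higher and a median of -0.10 over 7572 genes. In kept cells outside the rule, a mixture of all other leukocytes, 4 were lower and 7 higher with a median of 0.26, against 9.05% lower, 5.93% higher and a median of -0.046 over 7999 genes. With every kept cell thinned to 1000 UMIs before the rule, the list's median was 0.37 in the whole set, of opposite sign, and -0.27 in the remaining cells. The shares over all measured genes given in this paragraph also stand beside the counts of the other lists below.

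Plac8, a small protein abundant in monocytes (chromosome 5, 100553725 to 100572245, minus strand), had 4916 and 1264 CPM, 0.257-fold (0.239 to 0.277). Thrombospondin 1 (Thbs1, chromosome 2, 118111876 to 118127133, plus strand), a matrix protein that can activate latent TGF-β, had 565 and 124 CPM, 0.218-fold (0.171 to 0.276). In the kept cells outside the rule Plac8 had 151 and 96.9 CPM and Thbs1 18 and 33.2 CPM, so Thbs1 was higher there in the LOY library. Mgst1, a microsomal glutathione transferase, and Gsr, glutathione reductase, were at 0.285-fold (0.224 to 0.359) and 0.331-fold (0.257 to 0.422). The proteoglycan gene Vcan had 295 and 160.1 CPM, 0.543-fold (0.431 to 0.680), and fibronectin (Fn1) 1087 and 590.2 CPM, 0.543-fold (0.483 to 0.610). Lyz2 had 27082 and 17709 CPM, 0.654-fold (0.640 to 0.668), just past the limit. Chil3, a chitinase-like secreted protein, had 1732 and 1269 CPM, 0.733-fold (0.674 to 0.796), and Ccr2 1154 and 811 CPM, 0.703-fold (0.634 to 0.779), both short of it. The acute-phase gene Hp and the coagulation factor gene F13a1 were at 0.719-fold (0.648 to 0.797) and 0.725-fold (0.622 to 0.843), also short of it. The genes past it in the other direction were Ifi27l2a, at 2010.4 and 4162 CPM, 2.07-fold (1.96 to 2.19), and Ifitm3, at 6002 and 10954 CPM, 1.82-fold (1.76 to 1.89), both of them inducible by interferon.

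The share of cells with a transcript was compared after thinning each cell to 1000 UMIs. Plac8 was seen in 89.7% and 62.3% of the remaining cells, Ccr2 in 65.4% and 50.5%, Vcan in 22.1% and 13.2%, Thbs1 in 26.5% and 11.8% and Chil3 in 52.9% and 46.8%. The unthinned shares were 98.5% and 84.2% for Plac8, 97.1% and 85.5% for Ccr2, 55.9% and 26.7% for Vcan, 55.9% and 21.7% for Thbs1 and 73.5% and 66.97% for Chil3. Free RNA can place transcripts in cells that do not make them, and B cells (2 or more Cd79a UMIs, no Ly6c2, Cd3e or Cd3d) served as the measure of it. Thinned the same way, 833 and 75 B cells, from median depths of 2102 and 898 UMIs with 7 and 154 shallower cells left out, showed Ccr2 in 1.92% and 1.33% and Chil3, Vcan and Thbs1 in 0% (exact upper limits 0.442% and 4.8%). B cells can express Plac8, so macrophages were used for it (2 or more Lyve1 UMIs, no Ly6c2, at least 0.3% C1q). They showed Plac8 in 0.345% and 0.813%. Both background sets were chosen to lack Ly6c2, which leaves out barcodes that took up Ly6c2 RNA. Their low values of monocyte genes are therefore partly set by the choice of cells.

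Among genes with 50 CPM or more in 1 library and 50 UMIs or more over both, the 15 with the highest LOY to control ratio were Ccl7, Ms4a7, Ccl5, C3ar1, Ccl12, Cd72, Apoe, Slamf9, Pf4, Hist1h4d, Lgals3bp, Axl, Ctsd, Mif and Cxcl16, of which 10 were also among the 15 highest in the whole set of 440. Ms4a7, a membrane protein of macrophages (chromosome 19, 11321039 to 11336146, minus strand), had 70.1 and 407 CPM, 5.81-fold (4.47 to 7.63). C3ar1, the receptor of the complement fragment C3a, had 53.8 and 253 CPM, 4.71-fold (3.46 to 6.49). Apoe, a lipid carrier made in quantity by macrophages (chromosome 7, 19696109 to 19699188, minus strand), had 2999 and 11126 CPM, 3.71-fold (3.56 to 3.87). Axl, a receptor that helps cells take up dying neighbours, had 37.4 and 131 CPM, 3.50-fold (2.37 to 5.25). Outside the rule Ms4a7 was at 2.17-fold, Apoe at 1.76-fold, C3ar1 at 1.28-fold and Axl at 0.946-fold, so Ms4a7 and Apoe were past 1.5-fold there as well. The 15 highest of the whole set further held Lst1, Ecm1, Ly6a, P2ry6 and Cox6a2, the last of which had 0 UMIs in the remaining cells of both libraries.

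**Figure D2:**
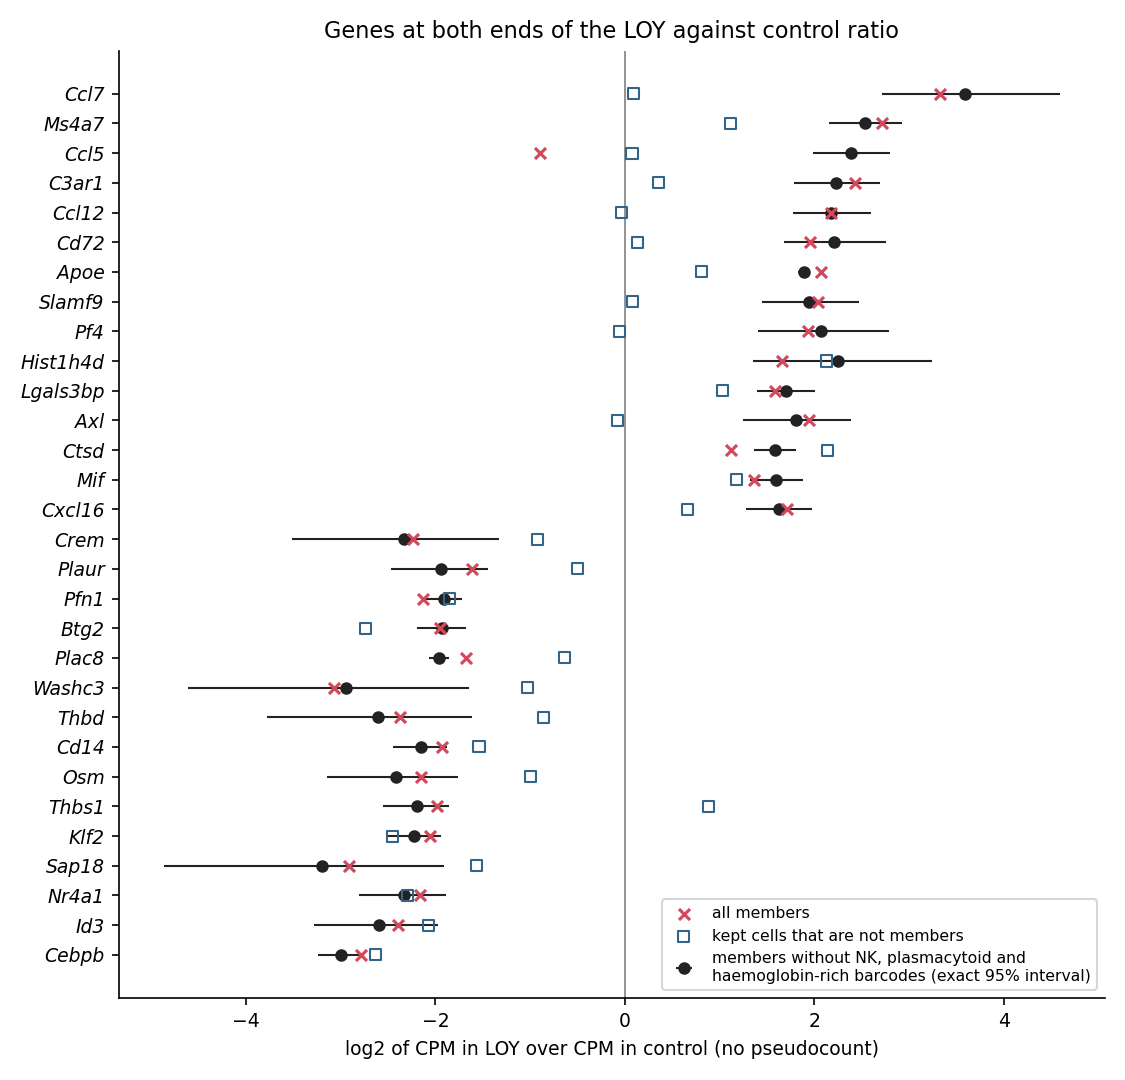
Log2 of LOY over control CPM for the 15 highest and 15 lowest genes of the remaining cells (black circles, exact 95% intervals for counting error), with all 440 cells as crosses and kept cells outside the rule as open squares. The squares of Cebpb, Nr4a1, Klf2 and Pfn1 lie near their circles, that of Thbs1 lies on the other side of 0, and the cross of Ccl5 lies below 0 while its circle lies above it.

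The 15 with the lowest ratio were Cebpb, Id3, Nr4a1, Sap18, Klf2, Thbs1, Osm, Cd14, Thbd, Washc3, Plac8, Btg2, Pfn1, Plaur and Crem. Cebpb, a transcription factor of myeloid differentiation and inflammation (chromosome 2, 167688915 to 167690418, plus strand), had 1931 and 243 CPM, 0.126-fold (0.106 to 0.148). Nr4a1, an orphan nuclear receptor, had 354 and 70.2 CPM, 0.198-fold (0.142 to 0.270), and Klf2, a transcription factor of quiescence, 798 and 171 CPM, 0.214-fold (0.174 to 0.261). In kept cells outside the rule Cebpb was at 0.161-fold, Nr4a1 at 0.204-fold, Klf2 at 0.183-fold, Btg2 at 0.149-fold, Pfn1 at 0.277-fold and Id3 at 0.238-fold. For Osm, Plaur and Thbd the ratios outside the rule were nearer to 1. Osm, the cytokine oncostatin M, was at 0.187-fold (0.113 to 0.295) against 0.501-fold outside. Plaur, the urokinase receptor, was at 0.260-fold (0.181 to 0.366) against 0.709-fold, and Thbd, thrombomodulin, at 0.164-fold (0.0727 to 0.327) against 0.553-fold. Whether these ratios differ between the cells could not be tested with 1 library per group.

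In the whole set of 440 the 15 lowest ratios included genes with few or no counts in the remaining cells. Xcl1, a chemokine of NK cells, had 344 and 17.1 CPM in the whole set and 0 UMIs in the remaining cells of both libraries. Il2rb, the interleukin-2 receptor beta chain, had 182 and 15.7 CPM and also 0 UMIs in the remaining cells. Klrc1 had 73 UMIs in control and 0 in LOY cells, which allows up to 4.27 CPM. Of the 15 lowest genes of the whole set, 7 were among the 15 lowest of the remaining cells.

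Macrophage genes as a list were higher in the LOY cells. Of 16 genes, 15 were measured, 11 were higher and 0 lower, with a median log2 ratio of 1.02. Outside the rule the list had 7 higher and 1 lower of 16 (median 0.45). Besides Ms4a7 and Apoe, it held the inhibitory receptor Cd72 (39.4 and 181 CPM), the chemokine Pf4 (24.96 and 105 CPM), the lysosomal proteases Ctsd (258 and 775 CPM) and Ctsb (904 and 1850.1 CPM), and Aif1 (395 and 1040.2 CPM). The macrophage growth factor receptor Csf1r had 349 and 676 CPM, 1.93-fold (1.68 to 2.23), and the high-affinity IgG receptor Fcgr1 497 and 918 CPM, 1.85-fold (1.64 to 2.08). Adgre1, which encodes F4/80, the mannose receptor gene Mrc1 and the protease gene Lgmn were at 1.03-fold (0.748 to 1.42), 1.05-fold (0.619 to 1.74) and 1.01-fold (0.827 to 1.24). Maf, a transcription factor of macrophages, had 136 and 224 CPM, 1.64-fold (1.30 to 2.09), and outside the rule 673 and 501 CPM.

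Transcripts of Apoe, Ms4a7, C3ar1, Fcgr1 and Csf1r were also found in B cells, which were taken to lack them. At 1000 UMIs per cell, Apoe was seen in 63.2% and 83.6% of the remaining cells and in 39.3% and 62.7% of B cells. Ms4a7 was seen in 4.41% and 20% against 3.96% and 14.7% of B cells. The LOY value is from the 75 LOY B cells that reached 1000 UMIs, with an exact interval of 7.56% to 24.7%. C3ar1 was seen in 2.94% and 18.2% against 2.16% and 5.33%, Fcgr1 in 33.8% and 48.6% against 2.04% and 9.33%, and Csf1r in 29.4% and 46.8% against 4.32% and 10.7%. Mean UMIs per thinned cell were 3.04 and 11.7 for Apoe in the remaining cells against 1.87 and 9.16 in B cells. For Ms4a7 they were 0.0735 and 0.4 against 0.0456 and 0.427, so LOY B cells held about as much as LOY remaining cells. For C3ar1 they were 0.0368 and 0.236 against 0.0216 and 0.0533. Fcgr1 had means of 0.529 and 0.945 against 0.0204 and 0.12, and Csf1r of 0.375 and 0.7 against 0.0636 and 0.12. Unthinned, the shares in the remaining cells were 88.97% and 90.5% for Apoe, 16.9% and 31.7% for Ms4a7, 17.6% and 38.5% for C3ar1, 68.4% and 73.3% for Fcgr1 and 81.6% and 76.9% for Csf1r. Over all B cells, at the median depths given above, the unthinned shares were 59.2% and 61.1% for Apoe, 8.33% and 7.86% for Ms4a7, 7.26% and 4.80% for C3ar1, 6.43% and 5.24% for Fcgr1 and 8.69% and 6.99% for Csf1r. The NK-marked cells of the set held Apoe at 141 and 311 CPM. The part of free RNA in the macrophage gene ratios was not tested.

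MHC class II genes, which present antigen to CD4+ T cells, were higher in the LOY cells and lower in the rest of the LOY library. Of 10 genes, 9 were measured, 6 were higher and 0 lower, with a median log2 ratio of 0.81. Outside the rule the list had 0 higher and 8 lower of 10 (median -1.12). Cd74, the invariant chain, had 4996 and 9572 CPM, 1.92-fold (1.85 to 1.99), and outside the rule 18997 and 7727 CPM. H2-Ab1, the beta chain of I-A, had 1670.5 and 2814 CPM, 1.68-fold (1.58 to 1.8), and outside the rule 7429 and 2158 CPM. Ciita, the transcriptional activator of the class, had 41.3 and 89.99 CPM, 2.18-fold (1.45 to 3.31). H2-Aa and H2-Eb1, at 1.26-fold (1.18 to 1.35) and 1.46-fold (1.35 to 1.58), did not pass 1.5-fold. The cells outside the rule include the B cells, which make class II in quantity, so their ratio mixes the makeup of the library with the level per cell. The dendritic marker Ccl17, with 0 and 49 UMIs in the remaining cells, moved the same way as the class II genes and Ccr7 the other way, and their part in the result was not tested.

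Per cell, H2-Aa, H2-Ab1, H2-Eb1 and Cd74 together took a median of 0.119% of UMIs in control cells, with quartiles of 0.0392% and 0.877% and a highest value of 8.24%. In LOY cells the median was 0.339%, with quartiles of 0.0345% and 2.63% and a highest value of 9.12%. The upper quartile thus differed more than the lower. No UMI of these 4 genes was found in 5 control and 45 LOY cells, counts that depend on depth. Cells at or above 0.3% numbered 49 of 136 in the control (36.03%, 27.98% to 44.7%) and 114 of 221 in the LOY library (51.6%, 44.8% to 58.3%), with 13 and 13 cells between 0.2% and 0.4%. Within these class II-rich cells H2-Ab1 was at 1.19-fold (1.12 to 1.28), H2-Eb1 at 1.04-fold (0.965 to 1.12), H2-Aa at 0.906-fold (0.845 to 0.972) and Cd74 at 1.41-fold (1.36 to 1.46), values that the split itself bears on.

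**Figure D3:**
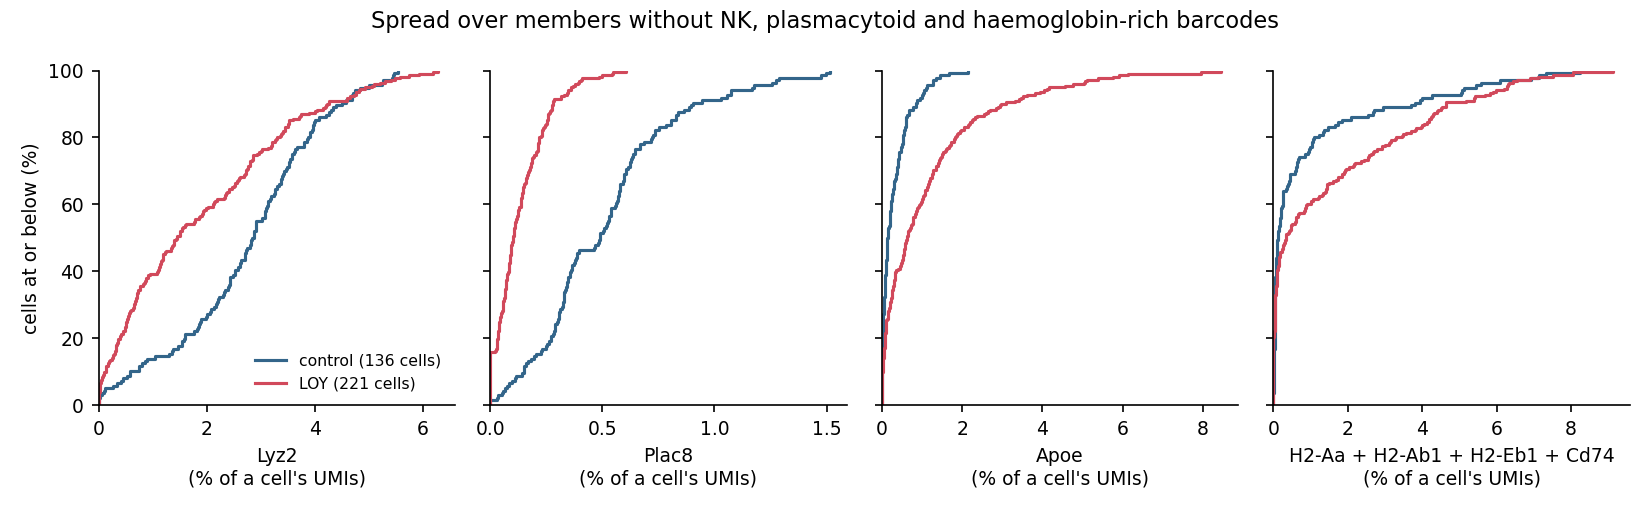
Cumulative distributions over the remaining cells (136 control in blue, 221 LOY in red) of Lyz2, Plac8, Apoe and 4 MHC class II genes, each as a percent of a cell's UMIs on the horizontal axis, with the percent of cells at or below a value on the vertical axis. The LOY curve lies to the left for Plac8 (medians 0.488% and 0.102%) and to the right for Apoe (medians 0.137% and 0.634%).

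The classical monocyte genes differed in how they stood on the 2 sides of that split. In cells under 0.3% class II (87 and 107 cells), Hp was at 1.04-fold (0.931 to 1.16), F13a1 at 1.03-fold (0.869 to 1.23), Chil3 at 0.934-fold (0.850 to 1.03), Lyz2 at 0.897-fold (0.874 to 0.920) and Vcan at 0.823-fold (0.641 to 1.05). In the class II-rich cells Hp was at 0.332-fold (0.245 to 0.445), F13a1 at 0.417-fold (0.294 to 0.583), Chil3 at 0.642-fold (0.535 to 0.770), Lyz2 at 0.440-fold (0.422 to 0.459) and Vcan at 0.207-fold (0.102 to 0.388). These 5 genes were thus nearer to equal between the libraries in the class II-low cells. Plac8 was lower on both sides, at 0.29-fold (0.262 to 0.320) and 0.237-fold (0.211 to 0.265), as was Thbs1, at 0.251-fold (0.186 to 0.332) and 0.246-fold (0.154 to 0.379). Apoe was higher on both sides, at 3.79-fold (3.55 to 4.05) and 3.08-fold (2.92 to 3.26), as was C3ar1, at 7.12-fold (4.01 to 13.3) and 3.13-fold (2.16 to 4.60). Spp1, which encodes osteopontin, had 13.8 and 241 CPM in the class II-low cells and 162 and 136 CPM in the class II-rich cells. Lyz2 was under 5 UMIs in 5 control and 27 LOY cells. Whether the ratios differ between the sides was not tested.

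**Figure D4:**
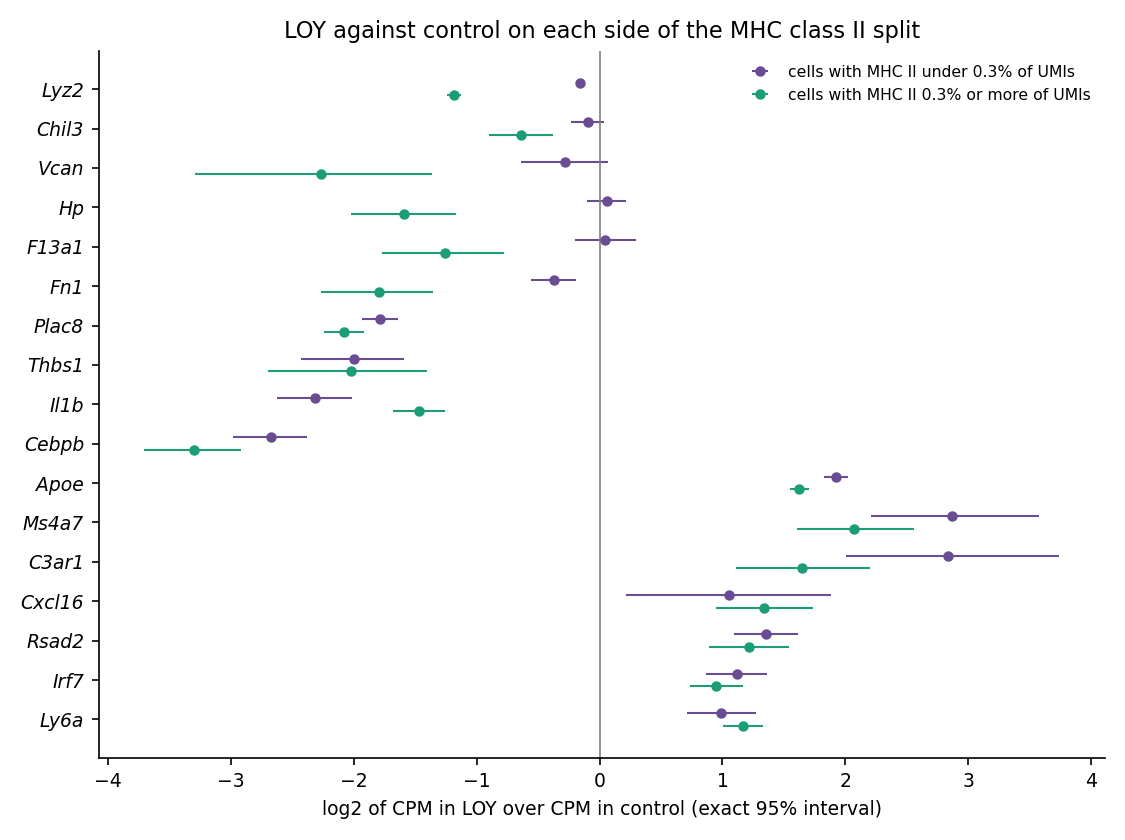
Log2 of LOY over control CPM (horizontal axis, exact 95% intervals for counting error) in remaining cells with under 0.3% (purple) and 0.3% or more (green) of UMIs from MHC class II genes. Lyz2, Chil3, Vcan, Hp and F13a1 lie nearer to 0 in the class II-low cells, whereas Plac8, Thbs1 and Cebpb lie below 0 and Apoe, Rsad2 and Irf7 above 0 on both sides.

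Interferon response genes, switched on by interferons to limit infection, were higher in the LOY cells. All 20 were measured, 11 were higher and 0 lower, with a median log2 ratio of 0.63. Outside the rule the list had 8 higher and 0 lower of 20 (median 0.39), the same direction. In the 49 control and 131 LOY cells left after thinning to 1000 UMIs before the rule, the median was 0.082. Rsad2, the antiviral enzyme viperin (chromosome 12, 26442746 to 26456452, minus strand), had 325 and 775 CPM, 2.38-fold (2.07 to 2.74). Irf7, which amplifies the type I response, had 530 and 1164 CPM, 2.20-fold (1.97 to 2.45), and the membrane protein gene Ly6e 1859.6 and 3829.8 CPM, 2.06-fold (1.94 to 2.19). Isg15, a ubiquitin-like modifier, had 1417 and 2045 CPM, 1.44-fold (1.34 to 1.56), short of 1.5-fold. Gbp2, Ifi204 and Xaf1 were at 0.957-fold, 0.993-fold and 1.03-fold. At 1000 UMIs per cell, Rsad2 was seen in 12.5% and 27.7% of the remaining cells against 0.480% and 1.33% of B cells, and Irf7 in 25.7% and 51.8% against 3.24% and 12%. Unthinned, Rsad2 was seen in 25.7% and 37.1% against 2.5% and 3.49% of B cells and Irf7 in 68.4% and 77.8% against 9.64% and 12.7%.

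Genes of this response often carry the interferon-stimulated response element near their start, and the start regions of Isg15, Rsad2 and Ifit3 are shown because genes of the list were higher together. The letters GAAANNGAAA, or TTTCNNTTTC on the other strand, were searched in windows of 300 bases at gene starts from RefSeq on GRCm38.p6. They occurred in 8 of the 16 listed genes that had a window (Bst2, Gbp2, Gbp5, Ifit1, Ifit3, Isg15, Rsad2 and Stat2) and in 3.99% of 27025 genes. Irf7, Ifit2 and Oasl2 were among the 8 without a match. Matches are in capitals and may overlap, as the 3 in Isg15 do, and each window runs from 5′ to 3′ on the strand of its gene. The windows are chr4:156200769-156201068 (minus strand) for Isg15, chr12:26456403-26456702 (minus strand) for Rsad2 and chr19:34583279-34583578 (plus strand) for Ifit3, whose level was 319.7 and 517 CPM. A match describes the letters only and is no measure of binding.
Isg15: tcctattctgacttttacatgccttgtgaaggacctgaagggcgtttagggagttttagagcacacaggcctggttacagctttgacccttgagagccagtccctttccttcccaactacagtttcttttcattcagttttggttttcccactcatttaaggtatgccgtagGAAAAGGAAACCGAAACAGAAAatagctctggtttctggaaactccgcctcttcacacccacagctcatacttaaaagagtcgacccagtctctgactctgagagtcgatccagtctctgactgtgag
Rsad2: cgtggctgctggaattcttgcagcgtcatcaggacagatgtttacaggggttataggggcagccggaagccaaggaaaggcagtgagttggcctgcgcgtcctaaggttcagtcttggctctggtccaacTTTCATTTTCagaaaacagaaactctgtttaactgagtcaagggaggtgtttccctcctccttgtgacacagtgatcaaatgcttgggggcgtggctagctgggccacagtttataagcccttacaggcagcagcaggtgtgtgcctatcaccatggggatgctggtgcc
Ifit3: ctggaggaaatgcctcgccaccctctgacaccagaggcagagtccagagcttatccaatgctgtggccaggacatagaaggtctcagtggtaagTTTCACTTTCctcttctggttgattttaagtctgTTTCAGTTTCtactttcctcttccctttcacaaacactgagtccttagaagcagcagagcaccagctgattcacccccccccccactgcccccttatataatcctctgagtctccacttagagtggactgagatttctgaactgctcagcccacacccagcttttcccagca

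Chemokine ligands differed from gene to gene. Of 13 measured, 6 were higher and 1 lower, with a median log2 ratio of 0.30, and outside the rule the list had 1 higher and 5 lower of 14 (median 0.020). Ccl7 (chromosome 11, 82045712 to 82047525, plus strand), a ligand of Ccr2, had 12 and 91 UMIs, 11.5 and 139 CPM, 12.05-fold (6.57 to 24.2). Ccl12, another Ccr2 ligand, had 65.3 and 296 CPM, 4.53-fold (3.42 to 6.07), and Cxcl16, a ligand of Cxcr6, 102 and 314 CPM, 3.09-fold (2.43 to 3.94). Ccl2, the best known Ccr2 ligand, had 251 and 253 CPM, 1.01-fold (0.827 to 1.23), while outside the rule it had 232 and 102 CPM. Ccl5, a T cell and monocyte attractant, had 66.2 and 346 CPM, 5.23-fold (3.98 to 6.95). In the whole set of 440 it had 1704 and 914 CPM, the opposite direction, and in the NK-marked cells 8794 and 16155 CPM. Cxcl2, a neutrophil attractant, was lower, at 434 and 246 CPM, 0.566-fold (0.470 to 0.679). At 1000 UMIs per cell Ccl7 was seen in 2.21% and 7.73% of the remaining cells against 0.360% and 0% of B cells, and Ccl12 in 2.94% and 16.4% against 1.32% and 8%. Unthinned, Ccl7 was seen in 5.88% and 14.03% against 1.67% and 0.437% of B cells and Ccl12 in 9.56% and 23.5% against 3.69% and 4.37%. Ccl5 was seen in few of the remaining cells, 2.94% and 9.09% thinned against 0.840% and 2.67% of B cells. Its unthinned shares were 7.35% and 12.2% against 1.43% and 2.18% of B cells.

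Of 11 measured receptors and adhesion molecules that guide migration, 1 was higher and 3 lower, with a median log2 ratio of -0.46, which was 0.41 with cells thinned before the rule. The shares over all measured genes were 10.7% higher and 16.4% lower. Cxcr4, which retains cells in the marrow, had 129 and 54.9 CPM, and the hyaluronan receptor Cd44 had 458 and 218 CPM. Itgax, which encodes CD11c, was the gene higher, at 10.6 and 41.2 CPM, 3.90-fold (1.87 to 8.71), beside the dendritic marker Ccl17 given above, whose part in this was not tested.

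Inflammatory cytokine and NF-κB genes were lower in part. Of 16 measured, 7 were lower and 0 higher, with a median log2 ratio of -0.53, which was 0.14 with cells thinned before the rule. Outside the rule the list had 0 higher and 8 lower of 15 (median -0.63). Il1b, which encodes interleukin-1β, had 1747 and 531 CPM, 0.304-fold (0.270 to 0.341), and outside the rule 821 and 303 CPM. Ptgs2, which makes prostaglandins, had 99.8 and 24.4 CPM. The cytokine gene Tnf had 16.3 and 18.3 CPM, and the inflammasome sensor gene Nlrp3 41.3 and 62.5 CPM, 1.51-fold (0.963 to 2.38). Nonclassical monocyte genes had 0 higher and 4 lower of 12 (median -0.34), Nr4a1 the lowest, and their fractalkine receptor Cx3cr1 had 184 and 267 CPM, 1.45-fold (1.17 to 1.79). Over all measured genes 10.7% were higher and 16.4% lower.

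Immediate early and stress genes, which respond quickly to growth factors, tissue dissociation and heat, were more often lower both in the cells described and in the rest of the library. Of 27 measured, 13 were lower and 3 higher, with a median log2 ratio of -0.56, and outside the rule the list had 0 higher and 20 lower of 28 (median -1.04). Besides Klf2, the lowest were the antiproliferative gene Btg2 (873 and 229 CPM) and Zfp36 (984 and 288 CPM), which speeds the decay of cytokine transcripts. Fos, a subunit of AP-1, had 2214 and 1498 CPM and did not pass 1.5-fold. The genes higher were the AP-1 subunit Jun (566 and 868 CPM) and the chaperones Hsp90ab1 (1607 and 2521 CPM) and Hspe1 (221 and 421 CPM). Handling of the tissue and the genotype of the marrow cannot be told apart here, since each group is 1 library. Among 18 measured myeloid transcription factors, Cebpb, Id3, Cebpd, Irf5 and Cebpa were lower, and Maf was among those higher. Spi1, which encodes PU.1, had 587 and 604 CPM and Irf8, a factor of monocyte and dendritic lineages, 218 and 218 CPM.

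TGF-β drives fibroblasts to make matrix. Of 15 measured genes of the pathway, 1 was higher and 4 lower, with a median log2 ratio of 0.18, which was -0.27 with cells thinned before the rule. Over all genes measured in the remaining cells 10.7% were higher and 16.4% lower. The ligand Tgfb1 had 264 and 352 CPM, 1.33-fold (1.12 to 1.60), short of 1.5-fold, and outside the rule 195 and 269 CPM. The receptor genes Tgfbr1 and Tgfbr2 had 34.6 and 48.8 CPM and 47.04 and 39.7 CPM. Of the genes lower, Thbs1 is given above and Tgif1, a repressor of the pathway, had 76.8 and 21.4 CPM. The feedback gene Pmepa1 was higher, at 11 and 32 UMIs, 10.6 and 48.8 CPM, 4.62-fold (2.27 to 10.2). Outside the rule it was at 54.7 and 225 CPM. In thinned cells Pmepa1 was seen in 1.47% and 4.09% of the remaining cells against 1.20% and 6.67% of B cells. Its mean UMIs per thinned cell were 0.0147 and 0.0545 against 0.012 and 0.08, with 75 LOY B cells. The part of free RNA in the Pmepa1 ratio was not tested. Tgfbi, a matrix protein induced by TGF-β, had 836 and 809.9 CPM.

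Of 13 measured matrix, repair and growth factor genes, Osm, Plaur, Mmp8 and Fn1 were lower and Ecm1 higher, with a median log2 ratio of -0.39 against 0.013 outside the rule. Among all genes measured in the remaining cells 16.4% were lower and 10.7% higher. Ecm1, an extracellular matrix glycoprotein, had 68.2 and 207 CPM, 3.04-fold (2.27 to 4.11), and outside the rule 79.3 and 204 CPM. Arg1, the arginase of repair macrophages, had 45.1 and 32.03 CPM, 0.710-fold (0.403 to 1.21).

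Genes of lipid-associated macrophages had 5 higher and 2 lower of 9 (median 0.73), against 8 higher and 2 lower of 10 (median 1.34) outside the rule. Spp1 had 69.1 and 185 CPM, 2.67-fold (1.98 to 3.63). In the whole set of 440 its log2 ratio was 0.017, and the NK-marked cells had 567 and 0 CPM. In thinned cells Spp1 was seen in 2.94% and 7.73% of the remaining cells against 0.240% and 5.33% of B cells. Its mean UMIs per thinned cell were 0.0588 and 0.145 against 0.0024 and 0.16, with 75 LOY B cells. The part of free RNA in the Spp1 ratio was not tested. Trem2, a lipid receptor, had 149.8 and 304 CPM, whereas the tetraspanin Cd9 had 88.3 and 21.4 CPM and Fabp5, a fatty acid carrier, 177 and 105 CPM. Of 10 genes of resident cardiac macrophages only Selenop, Folr2, Cbr2 and Mgl2 were measured, with 286 and 198 UMIs, 7 and 11 UMIs, 9 and 17 UMIs and 3 and 11 UMIs in that order, and their median of 0.81 rests on few counts.

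MHC class I genes, which present antigen to CD8+ T cells, had 1 higher and 5 lower of 15 (median 0.094), and in the whole set of 440 0 higher and 7 lower of 15 (median -0.50). H2-D1 had 2527 and 1454 CPM and H2-Q7 111 and 273 CPM. Many H2 genes share sequence, so their separate values are uncertain. Glycolysis genes had 1 higher and 2 lower of 15 (median 0.17), and p53 and survival genes 1 higher and 2 lower of 12 (median -0.11). For all genes measured in the remaining cells the shares were 10.7% higher and 16.4% lower. Cell cycle genes had 6 higher and 2 lower of 11 (median 0.59), with a median of -0.37 when cells were thinned before the rule. Their counts were small. Stmn1, a tubulin-binding protein, had 4 and 42 UMIs. Top2a had 0 UMIs in the control, which allows up to 2.88 CPM, and 14 UMIs, 21.4 CPM, in the LOY library. The proliferation marker Mki67 had 4 and 7 UMIs.

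**Figure D5:**
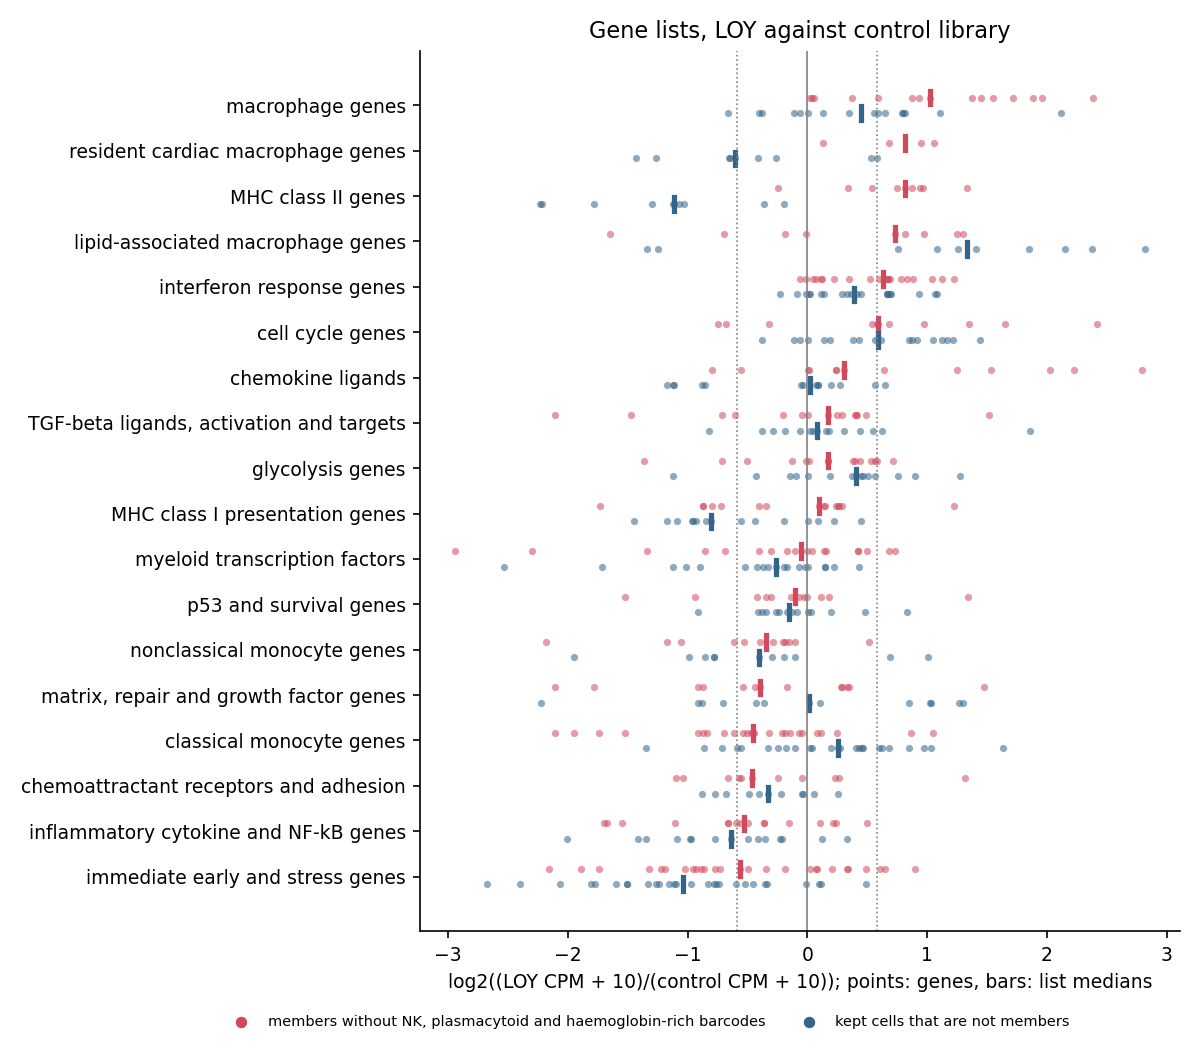
Log2((LOY CPM + 10)/(control CPM + 10)) for each measured gene of each list (points) with the list's median (bars), in the remaining cells (red) and kept cells outside the rule (blue), with dotted lines at 1.5-fold. MHC class II genes have medians of 0.81 and -1.12, classical monocyte genes of -0.45 and 0.26, and immediate early genes of -0.56 and -1.04.

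The genes that varied most among the cells, by the measure used, included chemokine, interferon and class II genes. The measure was the excess of the variance over the mean, divided by the squared mean, at 1000 UMIs per cell. It was taken for genes above a minimum mean, which were ranked by the lower value of the 2 libraries. Genes with low means can rank high on it, such as Cd14, with means of 0.588 and 0.2 UMIs. The 10 most variable of 514 genes in the remaining cells were Cxcl2, Cxcl10, Ccl4, Rsad2, Ccl2, H2-Eb1, Cd14, H2-Aa, H2-Ab1 and Ly6a. Cxcl10, an interferon-induced chemokine, had means of 0.691 and 0.8 UMIs per thinned cell. Ly6a, which encodes Sca-1, had means of 0.632 and 1.75, and it was seen in 15.4% and 47.3% of the thinned remaining cells and 16.8% and 46.7% of B cells, which can express it. In the whole set of 440 the cytotoxic granule protease gene Gzma and Ccl5 entered the 10 most variable genes. Lyz2 took a median of 2.86% of a control cell's UMIs, from 0% to 5.54%, and 1.44% of a LOY cell's, from 0% to 6.29%. Plac8 took medians of 0.488% and 0.102%, with highest values of 1.51% and 0.607%. Apoe took medians of 0.137% and 0.634%, with highest values of 2.15% and 8.45%. The ranges of single cells overlapped between the libraries for all 3 genes.

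The nearest cells by choice were those that met the rest of the rule with C1q at or above 0.3%. They numbered 45 in the control, 0.644% (0.470% to 0.860%) of kept cells, and 294 in the LOY library, 5.43% (4.84% to 6.07%). Apoe stood at 16703 and 28109.7 CPM there, against 2999 and 11126 CPM in the remaining cells, and Ms4a7 at 1166 and 1409.8 CPM against 70.1 and 407 CPM. Chil3 was at 347 and 289.8 CPM against 1732 and 1269 CPM, and Vcan at 23.1 and 23.6 CPM against 295 and 160.1 CPM. The low-C1q cells thus held more of both monocyte genes and less of both macrophage genes in each library. Plac8 was lower in LOY than in control C1q-high cells too, at 1657 and 470.2 CPM, as was Cebpb, at 752 and 125 CPM. Ccl7 was at 419 and 242 CPM and H2-Ab1 at 5561 and 3648 CPM in the C1q-high cells, lower in the LOY library, where the low-C1q cells had higher values. Cells set apart by a Cd209a UMI alone numbered 4 and 6.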

How the data were processed

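Single-cell RNA sequencing of sorted cardiac leukocytes gave 1 library per group. The authors deposited raw UMI counts per gene and barcode, made with Cell Ranger 5.0.0 on mm10 per the submitters' processing notes. The annotation release and the handling of reads shared between genes are not given in the sources used here. The libraries held 7276 and 5475 barcodes with 42640861 and 18710715 UMIs. Barcodes under 500 UMIs, under 200 genes or over 10% mitochondrial UMIs were dropped, which left 6992 control and 5415 LOY cells. Gene positions come from GENCODE M21 on mm10.

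Counts of the chosen cells were summed per library and scaled to CPM, and cells were not treated as replicates. The intervals leave out the spread between cells and between the pooled mice, so they are narrower than the real uncertainty. Intervals were exact (Poisson, Clopper-Pearson or conditional binomial). Thinning used seed 1. The computations were tested on simulated data. Doublets were not removed from the main values. Scrublet in scanpy called 88 control and 0 LOY cells automatically, so the highest scores, 391 and 235 cells with 7 and 5 of the cells chosen, were left out as an alternative.

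The members and gene lists were chosen with earlier results of these data known. Genes were named by rule: the rule genes and markers, the Y-linked genes, the 15 highest and 15 lowest ratios in all 440 cells, the 3 highest and 3 lowest of each list, the 10 most variable genes and Tgfb1. Other genes named, and the 15 at each end in the remaining cells, were chosen after their values were seen. 1 listed gene is not reported here. Leaving out NK, plasmacytoid and haemoglobin-rich barcodes (3 or more NK, 3 or more plasmacytoid or 10 or more haemoglobin UMIs) was also chosen after seeing the data. Other alternatives varied the UMI, mitochondrial, Ly6c2 and C1q limits, the pseudocount, the filter on low values, the scaling and thinning. Tools were Python 3.11.15, numpy 2.4.6, scipy 1.17.1, pandas 2.3.3, scanpy 1.11.5, anndata 0.12.19 and matplotlib 3.10.9.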

Additional observations from a re-analysis of the deposited data

Results flagged for a closer look

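Several results pointed in opposite directions in the remaining Ly6c2-positive C1q-low cells and in the kept cells outside the rule, as log2((LOY CPM + 10)/(control CPM + 10)) past 1.5-fold both ways. None of these differences was tested, since each group is 1 library, and the cells outside the rule are a mixture of cell types. Among the lists, the median of the MHC class II genes was 0.81 in the remaining cells and -1.12 outside the rule, and that of the resident cardiac macrophage genes 0.81 and -0.60. Of the class II genes, H2-Ab1 was at 0.75 and -1.78, Cd74 at 0.94 and -1.30, Ciita at 0.96 and -1.07, and H2-DMb1 at 0.88 and -1.03. Of the resident macrophage genes, the folate receptor gene Folr2 was at 0.68 and -0.65 and the lectin gene Mgl2 at 1.06 and -1.43. Both rest on the few UMIs given above for the remaining cells, as does the median of their list, with 4 of 10 genes measured there. The opposite order was seen for Fn1, at -0.87 and 0.85, for Thbs1, at -2.11 and 0.62, and for Fabp5, at -0.70 and 1.26.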

How the results depend on the processing

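No paired analysis was possible because each group is 1 library. The values here are those of all 440 cells, where the shares were 2.79% and 4.52% and 680 genes were higher and 1366 lower. With each cell thinned to 1000 UMIs before the rule (98 and 149 cells), the shares were 1.41% and 2.97%, 1859 genes were higher and 3334 lower, and medians were 0.37 for classical monocyte, 1.23 for lipid-associated, -0.043 for chemoattractant receptor, 1.34 for MHC class II, -0.28 for immediate early and -1.01 for cell cycle genes. With at most 5% mitochondrial UMIs the control share was 3.30%, and with 4 or more Ly6c2 UMIs the shares were 2.29% and 3.18%. With C1q at 0 UMIs the shares were 1.33% and 2.77%, 1064 genes were higher, and medians were 0.40 for nonclassical monocyte, 0.70 for chemokine and 1.14 for MHC class II genes. With 50 CPM added, 203 genes were higher and 328 lower, and with the mean of per-cell CPM the classical median was -0.051. Leaving out cells with a UMI of another lineage gave shares of 1.73% and 3.95%, medians of -0.39 for classical, 0.67 for lipid-associated and 0.047 for MHC class I genes, and turned Cox6a2 (-0.15) and Ccl5 (2.12). Leaving out the NK, plasmacytoid and haemoglobin-rich barcodes gave a control share of 1.95%, medians of -0.45, 0.73 and 0.094 for the same lists, and Ccl5 at 2.22. With those left out and cells thinned (49 and 131 cells), the shares were 0.707% and 2.61%, 2255 genes were higher and 2629 lower, and medians were 0.60 for lipid-associated, 0.41 for chemoattractant receptor, 0.14 for inflammatory and 0.082 for interferon genes. Ccl5 was then at 2.35, and Il2rb and Tnfrsf18 at 0.82. The last 2 settings were chosen after seeing the data. The median over all measured genes was -0.10 in the main values, -0.27 after thinning and -0.14 after both steps. For the shares, the Y-linked sum, gene counts and list medians, 270 values under the alternatives stayed within their limits and 39 did not. The limits were counting intervals for the shares and the Y-linked sum and a 1.5-fold margin for gene counts. For list medians they were the typical width of single-gene counting intervals, which does not measure the spread of a median. For single genes, 498 values stayed within their counting intervals, 107 did not, and 6 changed sign from past 1.5-fold. Thinned sums leave few counts per gene, so low genes pass 1.5-fold more easily. For the other changes the cause was not tested.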
